A study of Mus musculus with 9 samples.

Results

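The 10 genes described here are muscle transcription factors, fusion proteins and fibre genes of developing or regenerating muscle. They were taken by symbol from the deposited raw count table as Myod1, Myog, Myf6, Mef2c, Tmem8c, Gm7325, Actc1, Ankrd1, Myl4 and Ncam1. All 10 were found among its 49568 gene rows. Tmem8c and Gm7325 are older symbols of the genes for myomaker and myomixer, named Mymk and Mymx in GENCODE vM21. Total RNA was sequenced from the gastrocnemius, a calf muscle, of mice of the C57Bl6J strain at an age of about 8 weeks. CTL muscles came from mice that received 0 Gy. RL is the muscle of the irradiated limb, 3 weeks after 3 sessions of 8.2 Gy given at 4 weeks of age, and CL is the muscle of the opposite, unirradiated limb of those mice. Each group holds 3 libraries, and the mouse numbers in the labels give 6 animals, so that CL and RL libraries of the same number share a mouse while CTL mice are separate.

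When muscle is damaged, satellite cells, the resident stem cells marked by Pax7, become myoblasts that switch on Myod1 and then Myog, leave the cell cycle and fuse. Fusion needs 2 muscle-specific membrane proteins, myomaker and myomixer. The fibres so formed first make embryonic contractile proteins, such as the myosin of Myh3, the cardiac type actin of Actc1 and the atrial type light chain of Myl4, before the adult forms replace them. Myf6, by contrast, is made mainly in mature fibres, where Mef2c also acts.

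The start regions of 4 of the genes are shown because the myogenic factors bind the short E-box motif, with 3 genes that peaked in the same library below (Myog, Ankrd1 and Myl4) and 1 that did not (Actc1). Of the 10 genes, 5 had an entry in the RefSeq promoter table for GRCm38.p6 and 5 (Myod1, Myf6, Tmem8c, Gm7325 and Ncam1) had none. Each sequence is the 250 bases before the start that RefSeq gives, read 5′ to 3′ on the strand of the gene, for Myog at chr1:134289754-134290003 on the plus strand, Ankrd1 at chr19:36119845-36120094 on the minus strand, Myl4 at chr11:104550413-104550662 on the plus strand and Actc1 at chr2:114052876-114053125 on the minus strand. For Myog, Ankrd1 and Actc1 the GENCODE gene spans given below begin farther upstream than the RefSeq start, so these windows overlap the spans. Capitals mark E-boxes (CANNTG, which reads the same way on both strands) and the CArG box, the site of serum response factor.
Myog: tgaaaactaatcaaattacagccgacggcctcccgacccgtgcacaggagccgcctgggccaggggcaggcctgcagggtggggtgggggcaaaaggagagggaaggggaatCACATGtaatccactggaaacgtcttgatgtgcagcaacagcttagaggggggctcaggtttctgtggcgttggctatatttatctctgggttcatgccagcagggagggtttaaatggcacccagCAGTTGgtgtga
Ankrd1: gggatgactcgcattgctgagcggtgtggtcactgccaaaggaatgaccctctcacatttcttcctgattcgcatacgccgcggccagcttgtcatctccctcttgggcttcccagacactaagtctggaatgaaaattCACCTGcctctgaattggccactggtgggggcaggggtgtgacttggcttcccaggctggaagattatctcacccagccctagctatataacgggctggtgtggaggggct
Myl4: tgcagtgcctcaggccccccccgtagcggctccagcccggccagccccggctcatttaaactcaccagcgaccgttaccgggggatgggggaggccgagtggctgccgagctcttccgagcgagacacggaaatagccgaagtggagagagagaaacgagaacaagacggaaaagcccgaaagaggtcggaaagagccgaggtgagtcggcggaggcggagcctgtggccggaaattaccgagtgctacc
Actc1: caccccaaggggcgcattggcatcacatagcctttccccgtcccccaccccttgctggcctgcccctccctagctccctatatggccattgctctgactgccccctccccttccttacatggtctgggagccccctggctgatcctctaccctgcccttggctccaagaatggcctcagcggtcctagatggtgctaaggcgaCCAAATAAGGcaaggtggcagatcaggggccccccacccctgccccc
Myog held 2 E-boxes, Ankrd1 held 1, Myl4 held 0, and Actc1 held 0 together with 1 CArG box. Mef2c, which did not peak in that library, has 3 windows with 2, 0 and 1 E-boxes. An E-box was present in 66.2% of 32851 promoter windows of this length and a CArG box in 1.47%. The matches describe the letters only.

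The titin gene Ttn alone took 10.5% to 18.1% of the counts in every library, so all 9 carry the mark of skeletal muscle. Library totals ran from 30.8 to 44.6 M counts, of which mitochondrially encoded genes took 31.1% to 51.8%. CTL 2 had the smallest total, the smallest mitochondrial share and the largest Ttn share. Levels are given as CPM, the usual counts per M counts in tested genes after scaling by the trimmed mean of M values (TMM). At this depth 1 count was worth 0.0206 to 0.0297 CPM. CL 1, the column headed 304_CG, stood apart, since its log2 CPM correlated with those of the other 8 at a median r of 0.969, where the rest had 0.979 to 0.987. It was also the highest library for 20.7% of 14989 tested genes, the largest share of the 9. The 12 NK cell and lymphocyte markers summed to 20.6 CPM in CL 1, 0.218 and 0.562 in CL 2 and 3, 0.197 to 0.352 in CTL and 0.465 to 0.777 in RL. The B cell gene Ms4a1 had 338 counts in CL 1 and at most 5 elsewhere, and 10 of the 12 markers were highest there. Results are therefore given with and without CL 1.

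Of the 10 genes, 7 had their highest CPM in CL 1, namely Myod1, Myog, Tmem8c, Gm7325, Ankrd1, Myl4 and Ncam1. Of the 8 that had enough counts to be tested, 5 were highest there, against the 20.7% of all tested genes. The 10 genes were chosen with earlier results of these data known, so these counts are a description only. RL 1, the irradiated limb of the same mouse, was second highest for Myod1, Myog, Myf6, Tmem8c, Ankrd1 and Ncam1 and highest for Actc1 and Mef2c. For Myl4 it ranked 4 of 9, and it had 0 counts of Gm7325. The heat map of levels relative to CTL shows this column pattern.

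**Figure D1:**
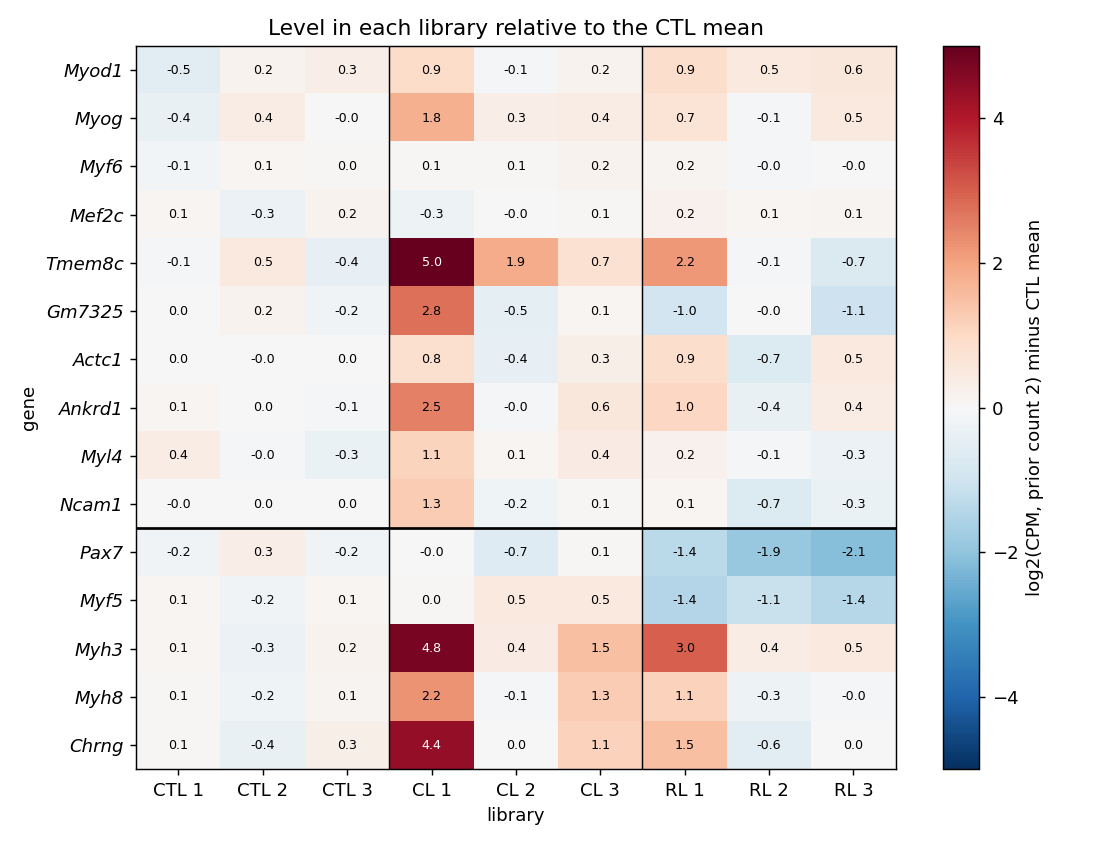
Heat map of each gene (rows) in each of the 9 libraries (columns), as log2 CPM with a prior count of 2 minus the mean of the 3 CTL libraries. Above the line are the 10 genes and below it Pax7, Myf5, Myh3, Myh8 and Chrng; CL 1 reads 4.97 for Tmem8c and 4.75 for Myh3, while Pax7 reads between -2.14 and -1.35 in the RL libraries.

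Among the myogenic factors, Myod1 encodes the transcription factor that commits cells to muscle (chromosome 7, 46376474 to 46379099, plus strand). It had 1.73, 2.82 and 3.18 CPM in CTL 1, 2 and 3, then 4.75, 2.40 and 2.84 in CL 1, 2 and 3, and 4.61, 3.50 and 3.72 in RL 1, 2 and 3. All RL libraries lay above all CTL libraries, and CL overlapped both. The RL mean was 3.94 ± 0.586 CPM and the CTL mean 2.58 ± 0.754 (SD, n = 3), and RL differed from CTL by 0.62 ± 0.27 (SE) on the log2 scale. It did not pass by edgeR's quasi-likelihood test adjusted over all genes (adjusted p = 0.394). Groups of RL and CTL did not overlap in 20.7% of tested genes.

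Myog encodes myogenin, the factor of the differentiating myoblast (chromosome 1, 134289989 to 134292548, plus strand). It had 1.51, 2.54 and 1.93 CPM in CTL 1 to 3, 6.77, 2.44 and 2.51 in CL 1 to 3, and 3.15, 1.86 and 2.74 in RL 1 to 3. CL 1 was 2.15-fold above the next library, RL 1, and both CL and RL overlapped CTL. The log2 fold change of CL against CTL was 0.99 ± 0.38 (SE, edgeR adjusted p = 0.691), and without CL 1 it was 0.32 ± 0.25 (edgeR adjusted p = 0.999).

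Myf6, also called Mrf4, is the myogenic factor of adult fibres (chromosome 10, 107492853 to 107494737, minus strand). Its mean was 34.6 ± 2.94 CPM (SD, n = 3) for CTL, 36.9 ± 1.63 for CL and 35.3 ± 2.69 for RL, with all 9 libraries between 31.2 and 38.8. Its groups overlapped in every comparison, and CL 1, at 36.1 CPM, lay inside the range. Mef2c, a partner of the myogenic factors in fibre gene expression (chromosome 13, 83504034 to 83667080, plus strand), had 456, 343 and 480 CPM in CTL 1 to 3, 353, 411 and 437 in CL 1 to 3, and 487, 457 and 466 in RL 1 to 3. The RL libraries lay above the CL libraries without overlap, as in 8.28% of tested genes. The log2 fold change between them was 0.23 ± 0.14 (SE, edgeR adjusted p = 0.999).

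**Figure D2:**
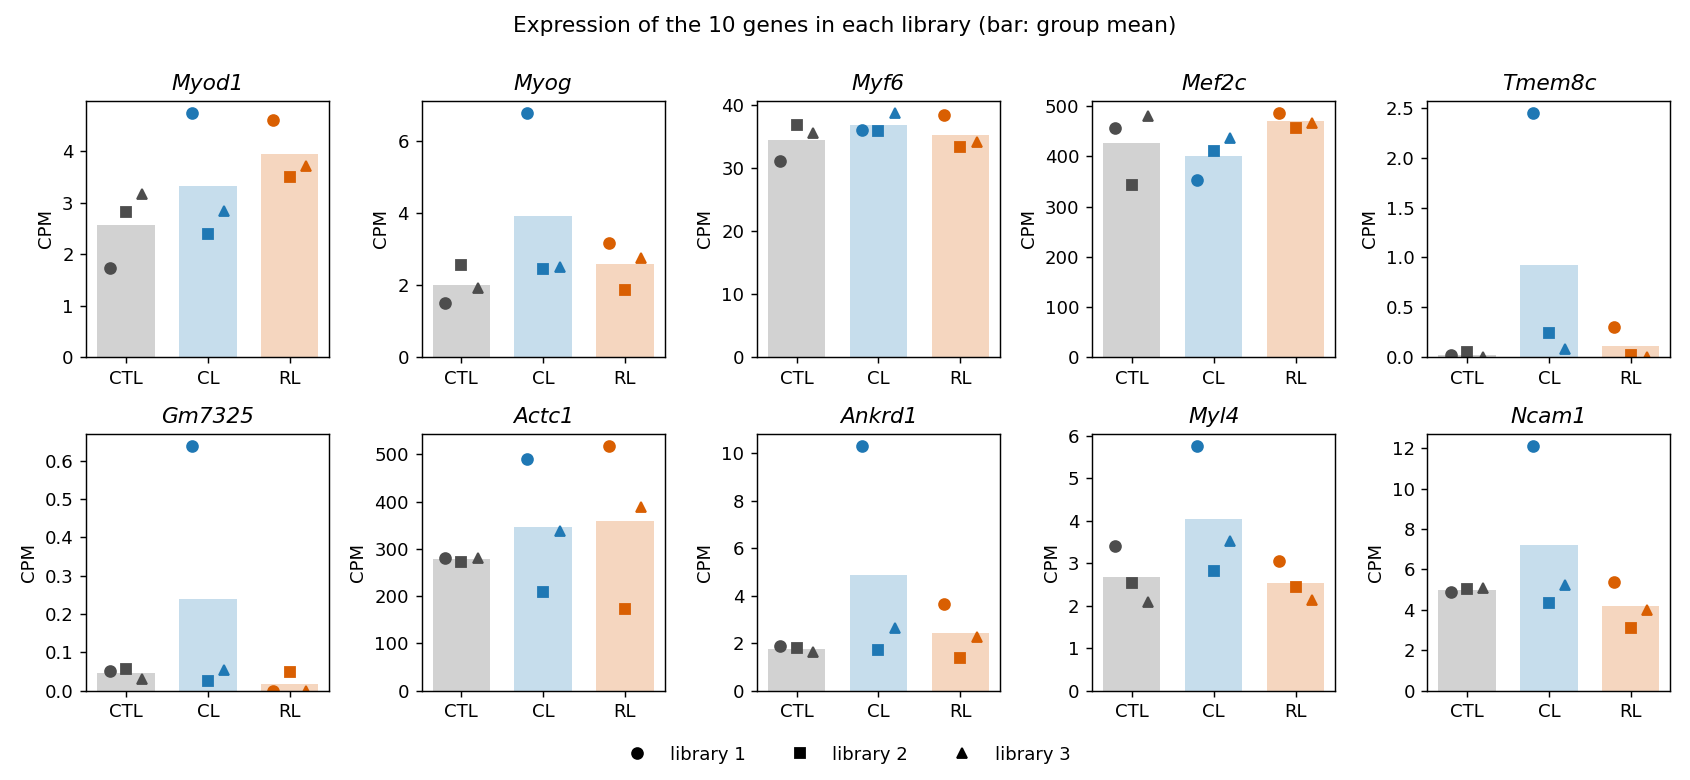
Expression of the 10 genes in CPM (vertical axis, from 0) by group, with bars at the group mean of 3 libraries and a symbol per library number. CL 1 (blue circle) is the top point for 7 genes, among them Tmem8c at 2.45 and Ankrd1 at 10.3 CPM, while Myf6 is level at 31.2 to 38.8 CPM.

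The fusion genes had at most 12 counts in any library but CL 1. Tmem8c, which encodes the fusion protein myomaker (chromosome 2, 27061636 to 27072179, minus strand), had 1, 2 and 0 counts in CTL 1 to 3, 119, 10 and 3 in CL 1 to 3, and 12, 1 and 0 in RL 1 to 3. The CL values lay above the CTL values, but CL 3 with 3 counts and CTL 2 with 2 were not separable at this depth, and RL overlapped both. The ratio of CL 1 to the 3 CTL libraries was 88.9, with an exact 95% interval of 29.7 to 437 that covers counting error only. CL 1 was singled out in these same data, so this interval and those like it below are descriptions only. A count of 0 allows up to 0.0892 CPM in CTL 3 and 0.0729 CPM in RL 3, taken as 3 counts.

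Gm7325, which encodes the small fusion protein myomixer (chromosome 17, 45600971 to 45602102, minus strand), had 2, 2 and 1 counts in CTL 1 to 3, 31, 1 and 2 in CL 1 to 3, and 0, 2 and 0 in RL 1 to 3. CL 1 was the single library above 2 counts. Its ratio to CTL was 13.9 (exact 95% interval 5.35 to 45.8, counting error only). Both fusion genes failed edgeR's expression filter over the 9 libraries and are not among the 8 tested genes. In the fit with no such filter, the log2 fold change of CL against CTL was 4.94 ± 0.62 for Tmem8c (SE, edgeR adjusted p = 1.13e-12) and 2.35 ± 0.79 for Gm7325 (SE, edgeR adjusted p = 0.0965). The p-values of that fit leave out each gene's own spread between libraries, and CL 1 held most CL counts of both genes. Tmem8c entered the filtered fits when certain libraries were left out, and did not pass in them (4.90 ± 1.89, edgeR adjusted p = 0.830, without CTL 1). In the authors' deposited table neither gene passed in CL against CTL, with adjusted p of 0.188 for Tmem8c and 0.961 for Gm7325.

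Of the fibre genes, Ankrd1 encodes a stretch-responsive ankyrin repeat protein of the titin complex (chromosome 19, 36111961 to 36120099, minus strand). It had 1.88, 1.78 and 1.64 CPM in CTL 1 to 3, 10.3, 1.72 and 2.65 in CL 1 to 3, and 3.66, 1.37 and 2.28 in RL 1 to 3. CTL was tight at 1.77 ± 0.124 CPM (SD, n = 3), and both CL and RL spanned it. The log2 fold change of CL against CTL was 1.48 ± 0.56 (SE, edgeR adjusted p = 0.691) and 0.30 ± 0.33 without CL 1 (edgeR adjusted p = 0.999).

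Actc1, the cardiac type actin that fetal and regenerating skeletal fibres use (chromosome 2, 114047282 to 114053548, minus strand), had 280, 273 and 281 CPM in CTL 1 to 3, 490, 208 and 338 in CL 1 to 3, and 517, 173 and 389 in RL 1 to 3. In the irradiated mice both limbs ranked the same way, with the highest level in the mouse of libraries numbered 1 and the lowest in that of libraries numbered 2. The SD over libraries was 4.23 CPM for CTL, 141 for CL and 174 for RL, and no group difference passed (edgeR adjusted p = 0.743 for RL against CTL, 0.909 for CL against CTL and 0.999 for RL against CL).

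Myl4, a light chain of atrial and embryonic skeletal myosin (chromosome 11, 104550663 to 104595753, plus strand), had 3.41, 2.54 and 2.08 CPM in CTL 1 to 3, 5.76, 2.83 and 3.53 in CL 1 to 3, and 3.05, 2.45 and 2.14 in RL 1 to 3. CL 1 was the highest library, and each group overlapped the others. Ncam1, a cell adhesion molecule that regenerating and denervated fibres carry (chromosome 9, 49502136 to 49798925, minus strand), had 4.87, 5.05 and 5.09 CPM in CTL 1 to 3, 12.1, 4.36 and 5.24 in CL 1 to 3, and 5.40, 3.11 and 4.01 in RL 1 to 3. Apart from CL 1, its libraries lay between 3.11 and 5.40 CPM. Actc1, Myl4 and Ncam1 overlap annotated genes on the opposite strand, and the strand setting of the counting is not given in the sources used here, so reads of those partners cannot be told apart.

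Per kilobase of annotated exon, the mean CTL levels were 172 CPM for Actc1, 27.4 for Myf6 and 27.1 for Mef2c. Myod1 and Myog followed at 1.39 and 1.33 CPM per kilobase, and Ankrd1, Myl4 and Ncam1 at 0.613, 0.578 and 0.577. Neighbours within each of 3 sets (Myf6 with Mef2c, Myod1 with Myog, and Ankrd1 with Myl4 and Ncam1) differed by less than their spread over libraries. Gm7325 and Tmem8c were lowest, at 0.0442 and 0.0180 CPM per kilobase, from 0 to 2 counts a library. In CL 1, Ankrd1 had 3.57 CPM per kilobase, Tmem8c 1.62 and Gm7325 0.621. The exon length is the union over transcripts, 15.7 kilobases for Mef2c, so that these levels depend on which transcripts are made.

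RL was set against CTL to ask what differed after radiation. By edgeR 0 of the 8 tested genes passed and 1, Myod1, had an unadjusted p under 0.05, where 0.514% of all tested genes passed and 12.0% had such a p. The adjusted p ran from 0.394 to 0.944. DESeq2 called 0 of the 8 and 2.35% of all genes, limma-voom 0 and 0.307%, and the authors' deposited table has 0 of the 10 and 2.22% of its genes under 0.05. With no filter on low counts, Myod1 passed (edgeR adjusted p = 0.0450), as did 3.14% of 28522 genes. The p-values of that fit leave out each gene's own spread between libraries. The log2 fold changes of the 8 genes had a median of 0.26, beside -0.0085 over all tested genes, with 6 positive and 2 negative. Without CL 1, 0 passed again, where 3.96% of all genes did. Myod1 was then at 0.64 ± 0.21 (SE, edgeR adjusted p = 0.125), while without CTL 1 it was at 0.40 ± 0.28 (edgeR adjusted p = 0.665) and without RL 1 at 0.49 ± 0.31 (edgeR adjusted p = 0.634). Without both limbs of mouse 1, Ankrd1 went from 0.46 to 0.051, Actc1 from 0.37 to 0.016 and Ncam1 from -0.26 to -0.49.

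The Myod1 value stood beside lower levels of satellite cell genes. Pax7, which marks satellite cells, had 1.58, 2.26 and 1.55 CPM in CTL 1 to 3, 1.75, 1.11 and 1.85 in CL 1 to 3, and 0.666, 0.441 and 0.364 in RL 1 to 3. Every RL library lay below every other library. In counts, Myod1 per Pax7 was 1.10, 1.25 and 2.06 in CTL 1 to 3, 2.72, 2.15 and 1.54 in CL 1 to 3, and 6.92, 7.94 and 10.2 in RL 1 to 3. RL lay above both other groups without overlap. Against CTL, an exact two-sided permutation test gave p = 0.1, the smallest that 3 against 3 allows and a value that the lack of overlap fixes. Against CL no p is given, since the test shuffles libraries freely while RL and CL libraries share mice. Myod1 per Myf5 count was 2.03 to 4.17 in CTL, 2.11 to 5.78 in CL and 10.2 to 18.0 in RL. These ratios were chosen after the values were seen, and Pax7 had the larger change of the pair, at a log2 of -1.87 in RL against CTL beside 0.62 for Myod1. In whole muscle, fewer cells of a type and less RNA per cell cannot be told apart.

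**Figure D3:**
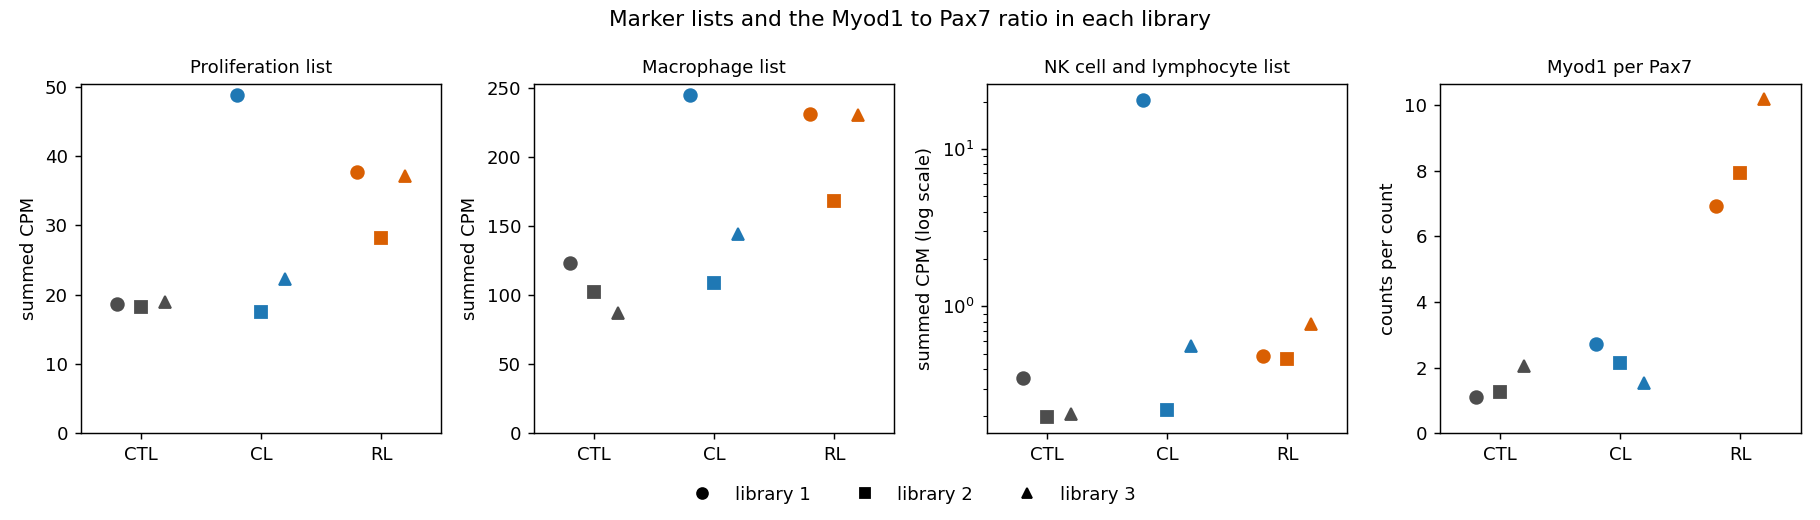
Summed CPM of the proliferation, macrophage and NK cell and lymphocyte lists, the last on a log axis, and Myod1 counts per Pax7 count, for each library by group. The lymphocyte list reaches 20.6 CPM in CL 1 against at most 0.777 elsewhere, and the ratio is 6.92 to 10.2 in RL against 1.10 to 2.72 in the other 6 libraries.

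The unirradiated limb was compared with control mice to ask about effects away from the irradiated site. By edgeR 0 of the 8 tested genes passed and 3 (Myog, Ankrd1 and Myl4) had an unadjusted p under 0.05, where 0% of all tested genes passed and 6.65% had such a p. DESeq2 called 0 of the 8 and 0.111% of all genes, limma-voom called 0 of either, and the authors' deposited table has 0 of the 10 and 0.0628% of its genes under 0.05. With no filter on low counts, 4 of the 10 passed (Myog, Tmem8c, Ankrd1 and Ncam1), as did 2.5% of all genes. Those calls, too, leave out each gene's own spread between libraries. Of the 8 fold changes 7 were positive, with a median log2 of 0.46 beside -0.0035 over all tested genes. Without CL 1 that median was 0.067, 0 of the 8 had an unadjusted p under 0.05, and Ncam1 moved from 0.54 ± 0.32 to -0.063 ± 0.20 (SE). The CL and CTL libraries of 0 of the 8 genes were apart without overlap, where those of 9.39% of all tested genes were. CTL libraries enter both this comparison and the preceding one.

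The irradiated limb was also compared with the opposite limb. By edgeR 0 of the 8 genes passed, where 0.0734% of all tested genes did, and Myl4 and Ncam1 had an unadjusted p under 0.05, as did 4.27% of all tested genes. DESeq2 called 0 of the 8 and 0.281% of all genes, limma-voom 0 and 0.0534%, and the authors' deposited table has 0 of the 10 and 0.256% of its genes under 0.05. With no filter on low counts, 5 of the 10 passed as lower in RL (Tmem8c, Gm7325, Ankrd1, Myl4 and Ncam1), as did 1.42% of all genes in either direction. Here again each gene's own spread between libraries is left out. The log2 fold change was -0.80 ± 0.32 for Ncam1 and -0.67 ± 0.27 for Myl4 (SE, edgeR adjusted p = 0.999 each). Within mice, 3 of the 8 tested genes (Ankrd1, Myl4 and Ncam1) were lower in RL than in CL in 3 of 3 pairs, as were 14.7% of all tested genes. Tmem8c was also lower in each pair, though on 10 against 1 and 3 against 0 counts in mice 2 and 3. The differences in log2 CPM were -1.15, -0.48 and -0.39 for Ncam1 and -0.91, -0.21 and -0.71 for Myl4 in mice 1, 2 and 3. With the mouse as a block, in a fit of the CL and RL libraries alone, 0 of the 8 passed still. Ncam1 had edgeR adjusted p = 0.103 (log2 -0.71 ± 0.16, SE), and 71 genes were called (0.484% of those tested). The fit of all 9 libraries without a block called 11, so the step between them is not the effect of the block alone. Without CL 1 and without the block, 0 of the 8 passed, where 0.898% of all genes did. Ncam1 was at -0.18 ± 0.20 and Myl4 at -0.30 ± 0.22 (SE), and Myog and Ankrd1 turned from -0.61 and -1.02 to 0.078 and 0.18. That fit keeps RL 1, and without both limbs of mouse 1 the values were -0.43 ± 0.17 for Ncam1, -0.47 ± 0.24 for Myl4, -0.10 ± 0.26 for Myog and -0.25 ± 0.28 for Ankrd1 (SE, edgeR adjusted p 0.671 to 0.998).

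**Figure D4:**
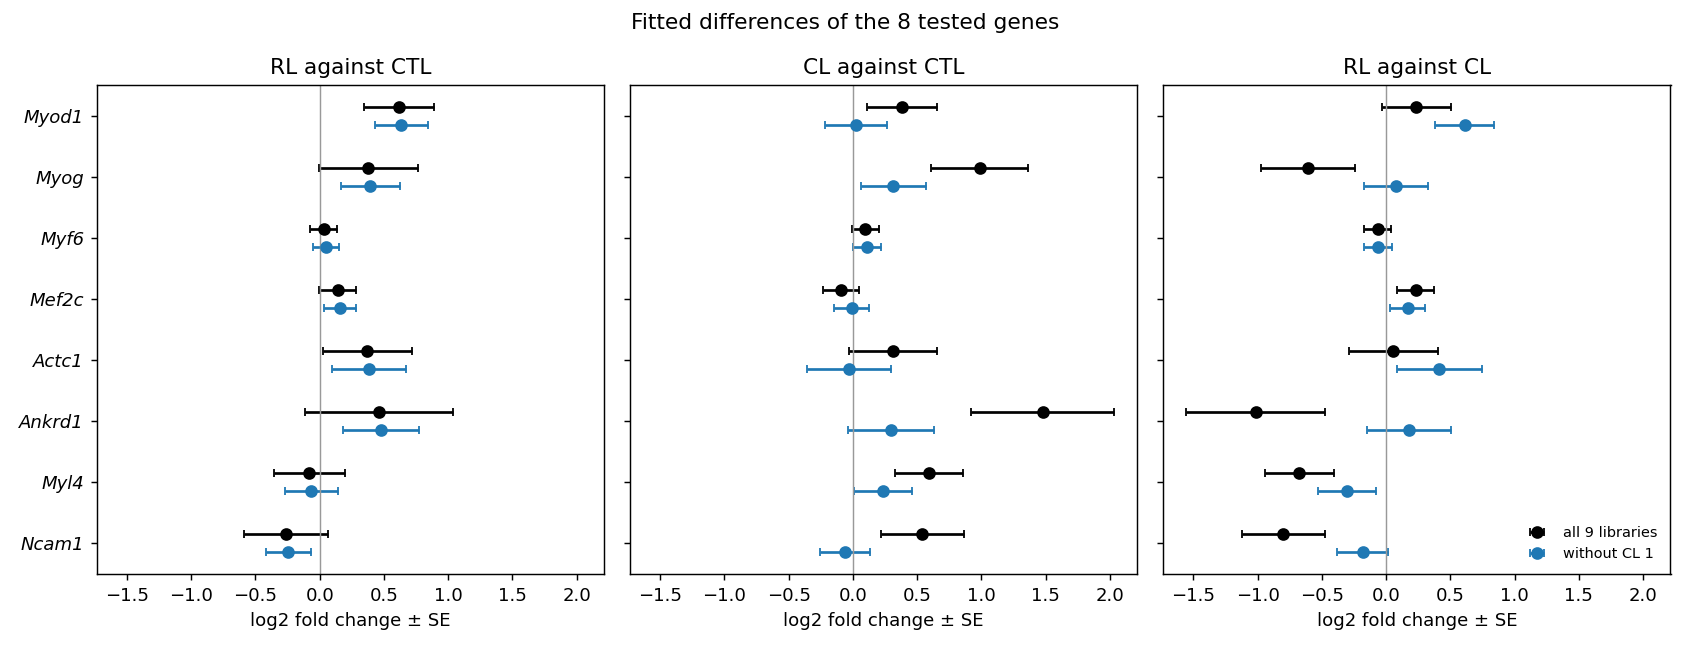
Log2 fold change (horizontal axis) with its standard error for the 8 tested genes in the 3 comparisons, from edgeR fits of all 9 libraries (black) and without CL 1 (blue). Without CL 1, Myog and Ankrd1 in CL against CTL move from 0.99 and 1.48 to 0.32 and 0.30, while the RL against CTL values keep their sign.

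Other genes of these programmes were read from lists written from textbook knowledge. Of 21 tested myogenic regulators, 0 rose and 0 fell in RL against CTL (2 with an unadjusted p under 0.05, Myf5 and Myod1), with a median log2 of 0.0079 beside -0.0085 for all genes. Over all tested genes 0.514% were called in RL against CTL, and 12.0% had such a p. Against CL, 1 fell and 20 did not pass, where 0.0734% of all tested genes were called. That gene was Myf5, the myogenic factor of satellite cells and their first progeny, with 0.854, 0.677 and 0.833 CPM in CTL 1 to 3, 0.823, 1.14 and 1.12 in CL 1 to 3, and 0.256, 0.343 and 0.267 in RL 1 to 3. All RL libraries lay below all others. The log2 fold change against CL was -1.82 ± 0.28 (SE, edgeR adjusted p = 0.0431). It passed without CL 1 (edgeR adjusted p = 0.0100) and with the mouse as a block (0.0326), and did not when any other library was left out, with edgeR adjusted p up to 0.347. In RL against CTL, Myf5 was at -1.44 without passing (edgeR adjusted p = 0.0526). It was called when CL 1 (-1.42, edgeR adjusted p = 0.0117) or CL 2 was left out, and by DESeq2 (adjusted p = 0.0247). DESeq2 also called Myf5 in RL against CL. In the authors' deposited table its adjusted p was 0.0154 in RL against CTL and 0.00114 in RL against CL.

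Of 22 tested fusion genes, 0 rose and 0 fell in any of the 3 comparisons by edgeR, with 3, 0 and 2 at an unadjusted p under 0.05 in RL against CTL, CL against CTL and RL against CL. Over all tested genes the shares with such a p were 12.0%, 6.65% and 4.27%, and 0.514%, 0% and 0.0734% were called. Jam2, a junctional adhesion molecule also made by endothelium, had 24.9, 22.8 and 25.7 CPM in CTL 1 to 3 and 15.8, 18.3 and 17.4 in RL 1 to 3, without overlap. Its log2 fold change was -0.51 ± 0.12 (SE, edgeR adjusted p = 0.0758), called by DESeq2 (adjusted p = 0.00732) and, without CL 1, by edgeR (adjusted p = 0.0121). In the authors' deposited table its adjusted p was 0.00109 in RL against CTL and 0.41 in RL against CL. Cdh15, the M-cadherin of satellite cells and myoblasts, had means of 7.41 ± 0.695 CPM (SD, n = 3) for CTL, 7.26 ± 0.983 for CL and 6.32 ± 0.847 for RL, with overlap of all groups.

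Of 24 genes of developmental or regenerating fibres, which include Actc1, Ankrd1, Myl4 and Ncam1, 16 had their highest CPM in CL 1, where 20.7% of all tested genes did. This list was also chosen with earlier results of these data known, so the count is a description. Myh3, embryonic myosin, had 1.26, 0.959 and 1.34 CPM in CTL 1 to 3, 33.0, 1.60 and 3.45 in CL 1 to 3, and 9.78, 1.52 and 1.65 in RL 1 to 3. All CL and all RL libraries lay above CTL, with the 2 limbs of mouse 1 highest. The log2 fold change of CL against CTL was 3.43 ± 1.06 (SE, edgeR adjusted p = 0.691) and 1.08 ± 0.70 without CL 1 (edgeR adjusted p = 0.999). Myh8, neonatal myosin, reached 12.3 CPM in CL 1, 6.34 in CL 3 and 5.76 in RL 1, and lay between 2.16 and 2.83 in the other 6. Chrng, the fetal acetylcholine receptor subunit, had 72 counts in CL 1 and at most 6 elsewhere, a ratio to the CTL libraries of 80.7 (exact 95% interval 21.5 to 679, counting error only).

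In the comparisons, 0 of 23 tested developmental genes rose or fell by edgeR, with 4, 8 and 8 at an unadjusted p under 0.05 in RL against CTL, CL against CTL and RL against CL. Over all tested genes the shares with such a p were 12.0%, 6.65% and 4.27%, and 0.514%, 0% and 0.0734% were called. Leaving out CL 1 gave 7, 1 and 2 genes of the list with such a p, beside 15.9%, 3.6% and 7.99% of all tested genes. Without CL 1, Vim, the intermediate filament of mesenchymal cells and myoblasts, rose (edgeR adjusted p = 0.0443) and Fgfr4 fell in RL against CTL. The median of the list in CL against CTL was 0.44 and became 0.032 without CL 1. Fgfr4, a growth factor receptor of myogenic cells, had 0.527, 0.366 and 0.773 CPM in CTL 1 to 3, 1.28, 0.557 and 0.615 in CL 1 to 3, and 0.0768, 0.171 and 0.0729 in RL 1 to 3. Each RL library lay below all 6 others. Its log2 fold change against CTL was -2.33 ± 0.52 (SE, edgeR adjusted p = 0.0733), which passed without CL 1 (edgeR adjusted p = 0.0121) and by DESeq2 (adjusted p = 0.0136). Against CL it was -2.90 ± 0.50 (SE, edgeR adjusted p = 0.0732), which also passed without CL 1 (edgeR adjusted p = 0.0371) and by DESeq2 (adjusted p = 0.00166). In the authors' deposited table the adjusted p of Fgfr4 was 0.00544 against CTL and 3.31e-04 against CL. Beside the shares of all tested genes named first, 0 of 15 tested genes of the denervation response passed in any comparison by edgeR (0, 3 and 2 at an unadjusted p under 0.05). Of 10 stretch response genes 0 passed (1, 2 and 1). Of the latter, Ctgf, a matrix signalling protein, was at 0.76 ± 0.16 (SE) in RL against CTL (edgeR adjusted p = 0.0556). It passed without CL 1 (edgeR adjusted p = 0.0127) and by DESeq2 (adjusted p = 0.00174), and did not in the authors' deposited table (adjusted p = 0.115).

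Besides the lymphocyte markers, those of dividing cells and macrophages differed among the libraries. The 20 proliferation genes summed to 48.9 CPM in CL 1, 17.5 and 22.2 in CL 2 and 3, 18.2 to 18.9 in CTL and 28.2 to 37.7 in RL, with 16 of the 20 highest in CL 1. The 14 macrophage markers summed to 245 in CL 1, 109 and 144 in CL 2 and 3, 87.2 to 123 in CTL and 168 to 231 in RL, with 5 of the 14 highest in CL 1. Of 13 tested macrophage markers 2 rose in RL against CTL, Ccr2 and Itgam, and 10 did so without CL 1. Over all tested genes 0.514% were called in RL against CTL, and 3.96% without CL 1. Of 18 tested proliferation genes, 0 passed by edgeR in any comparison with CL 1 kept. Without CL 1, 7 rose in RL against CTL, 0 in CL against CTL and 3 in RL against CL. In RL against CL without CL 1, 0.898% of all tested genes were called. The part of lymphocytes, dividing cells and macrophages in the values of the 10 genes was not tested.

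Of 14 cardiac markers, Nppa, Nppb and Nkx2-5 had no count in any library, and Myl7 had 2 counts in CL 1 and 0 elsewhere. Tnnt2, of the same list, had 135 counts in CL 1 and 9 to 32 elsewhere, while Myh6 was lowest in CL 1. The list, which includes Actc1 and Myl4, had 4 genes highest in CL 1. It summed to 500 CPM there, 212 and 342 in CL 2 and 3, 277 to 285 in CTL and 176 to 522 in RL. Actc1 alone had 490 CPM in CL 1. Markers of Schwann cells, which also make Ncam1, summed to 60.7 to 67.2 CPM in CTL, 50.3 to 65.3 in CL and 40.7 to 57.5 in RL, with CL 1 lowest of its group. The 13 myofibre markers summed to 233000 to 259000 CPM in CTL, 183000 to 233000 in CL, lowest in CL 1, and 179000 to 209000 in RL. Of 21 tested satellite cell markers, 3 fell in RL against CTL, namely Pax7, Calcr and Chodl, and 0 rose. Without CL 1, 7 fell and 1 rose, Sdc3, a syndecan of satellite cells (edgeR adjusted p = 0.0174). The shares called over all tested genes were 0.514%, and 3.96% without CL 1. Pax7, at -1.87 ± 0.30 (SE, edgeR adjusted p = 0.0255), was still called when CL 1 or CL 2 was left out. It was not called without any of the other 7 libraries, with edgeR adjusted p up to 0.181. DESeq2 called it, and its adjusted p in the authors' deposited table was 3.56e-05. Against CL, Pax7 was at -1.68 ± 0.30 (SE, edgeR adjusted p = 0.0864). There it was called without CL 1, with the mouse as a block, by DESeq2 and in the authors' deposited table (adjusted p = 0.00112).

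Across the 9 libraries, the tested genes whose log2 CPM was most like that of Myog were Mdc1, Snx8, H2afx, Adam12 and Shkbp1, with Pearson r of 0.953 to 0.970 and Spearman rho of 0.850 to 0.983. Adam12, a metalloprotease made by regenerating muscle, had 8.5 CPM in CL 1 and 0.661 to 1.64 in the others. For Actc1 they were Tbc1d20, C130080G10Rik, Aldh18a1, Hgf and Etv6, at r of 0.944 to 0.981 and rho of 0.900 to 0.983. Myog and Adam12 both peaked in CL 1 and the 9 libraries come from 6 mice, so the values are descriptions.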

How the data were processed

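Total RNA was sequenced from 9 gastrocnemius libraries, and the authors deposited raw counts per gene, and the submitters' processing notes name GRCm38.p5 and DESeq2. The kit was stranded, per the labels' protocols, while aligner, counter, strand setting and annotation were not given in the sources used here. The authors also deposited, per comparison, a log2 fold change and an adjusted p-value. Their normalised and regularised log tables were not used.

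The 26 rows whose names a spreadsheet had turned into dates (at most 0.0536% of a library) were left out. All 9 libraries were fitted together without covariates by edgeR 4.0.16 (R 4.3.3) quasi-likelihood after its expression filter by group, which kept 14989 genes, and p-values were adjusted by Benjamini-Hochberg over all of them, with calls under 0.05. Standard errors were taken as the size of the log2 fold change over the root of F. DESeq2 1.42.0 and limma-voom (limma 3.58.1) were alternatives. The edgeR test was also run on simulated counts with the same spread setting for every gene, no outlying library and no shared mice. That run cannot show how the test performs on the present libraries. Annotation is GENCODE vM21. Every pair of libraries of a group differed by more than counting noise (chi-square per degree of freedom at least 13.1). The largest values were those of CTL 2, at 101 with CTL 1 and 143 with CTL 3. CL 1 had 63.8 with CL 2 and 53.1 with CL 3.

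CL and RL libraries of the same number share a mouse, per the labels, and their deviations from the group means correlated at 0.299, 0.428 and 0.0756. Named genes are the 10, Pax7, Myf5, Myh3, Myh8, Chrng, up to 3 genes with the smallest p per list and comparison, and the 5 most like Myog or Actc1. Ttn, Vim, Sdc3, Ms4a1, Nppa, Nppb, Nkx2-5, Myl7, Cdh15 and the Myod1 ratios were chosen after their values were seen. The 10 genes and the lists were chosen with earlier results of these data known.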

Additional observations from a re-analysis of the deposited data

How the results depend on the processing

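With no filter on low counts, the 10 genes gave 1 call in RL against CTL (Myod1, adjusted p = 0.0450), 4 in CL against CTL (Myog, Tmem8c, Ankrd1 and Ncam1) and 5 in RL against CL (Tmem8c, Gm7325, Ankrd1, Myl4 and Ncam1) in place of 0, and 896, 714 and 406 genes were called in all. In CL against CTL the log2 fold change of Ankrd1 was 1.476 in both fits, while its SE was 0.202 with no filter and 0.558 with it. For Ncam1 the SE was 0.163 and 0.322, and for Myf6 it was 0.134 and 0.104. As stated above, the p-values with no filter leave out each gene's own spread between libraries. Why the fit with no filter left out that spread was not tested. Every other setting run left the count for the 10 genes at 0, including each fit without 1 library. Genes called in RL against CTL were 77, and 505 in a fit of the 6 libraries alone, 290 without the mouse of CL 1 and RL 1, 351 by DESeq2, 46 by limma-voom and 2 to 600 when 1 library was left out. In CL against CTL they were 0, 16 by DESeq2 and 0 to 1 when 1 library was left out. In RL against CL they were 11, 4 in the 6 libraries alone, 20 without that mouse, 42 by DESeq2 and 1 to 136 when 1 library was left out.

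With the replicate block on library numbers, 335 genes were called in RL against CTL and 3 in CL against CTL. Each number joins both limbs of an irradiated mouse to an unrelated CTL mouse. With the replicate block by mouse, RL against CL gave 71. None of these changed a call of the 10 genes.

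Without the mouse of CL 1 and RL 1, Myf6 in RL against CTL turned to -0.030, and Actc1 and Ncam1 in CL against CTL to -0.026 and -0.059. When 1 library was left out, values that changed sign ranged in RL against CTL from -0.034 to 0.078 for Myf6 and -0.23 to 0.14 for Myl4. In CL against CTL they ranged from -0.22 to 4.14e-04 for Mef2c, -0.030 to 0.58 for Actc1 and -0.063 to 0.81 for Ncam1. In RL against CL they ranged from -0.87 to 0.078 for Myog, -0.30 to 0.41 for Actc1 and -1.43 to 0.18 for Ankrd1. DESeq2 size factors in the edgeR fit changed no direction of the 8 tested genes. Depth limits Tmem8c and Gm7325, with 0 to 2 counts in each CTL library.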
